A study of Mus musculus with 2 samples.

Results

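The cation-chloride cotransporters and the kinases that control them were described here by 9 genes in the midbrain of mouse embryos. They were taken by symbol from the gene tables, as Slc12a2, Slc12a4, Slc12a5, Slc12a7, Slc12a9, Wnk1, Wnk2, Wnk3 and Stk39, and are 9 of the 43346 genes measured. All 9 had at least 1 TPM (a level per unit of transcript length, scaled to the same total in each library) in both libraries, where 34.3% of all genes did. The tissue came from B6NCrl embryos at 13.5 days of development, described as healthy, with males and females pooled and no treatment named. The number of embryos in each pool was not stated in the labels. The only group held 2 libraries of total RNA longer than 200 nt, numbered as biological replicates 1 and 2, each starting from 10 ng of RNA into which spike-in RNA was mixed. Genes took 31436613 expected reads in replicate 1 and 40215359 in replicate 2. With no other tissue, age or treatment, the comparisons are between genes within a library, between transcripts of a gene, and between the libraries.

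Cation-chloride cotransporters carry chloride across the cell membrane together with sodium or potassium. NKCC1, the product of Slc12a2, brings chloride into the cell, while the KCC proteins let it out, and the balance sets whether GABA and glycine depolarise or inhibit a neuron. In immature neurons chloride is high and GABA depolarises, and KCC2, the product of Slc12a5, is the exporter that neurons gain as they mature. WNK kinases sense chloride and cell volume and switch on SPAK (Stk39) and OSR1 (Oxsr1), which phosphorylate the cotransporters, activating NKCC1 and inhibiting the KCC proteins.

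By TPM over all transcripts of a gene, the WNK kinases and SPAK lay in the upper and middle part of the range of levels, the chloride exporters Slc12a5 and Slc12a7 lower, and the importer Slc12a2 at the bottom of the 9. Over the 9 genes the median level was 14.995 TPM, against 16.45 TPM over the 14878 genes detected. As a description, Wnk1 stood above 67.1% and Slc12a2 above 19.1% of the detected genes.

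The importer Slc12a2 was measured at 3.87 TPM in replicate 1 and 3.38 TPM in replicate 2 (3.63 ± 0.346, SD, n = 2), from 498 and 580 reads. It lies on chromosome 18 and has 1 annotated transcript in the tables. The exporter Slc12a5, at chr2:164960802-164999731 on the plus strand of GRCm38, had 10.96 and 11.56 TPM (11.3 ± 0.424). Its level exceeded that of Slc12a2 in each library, by 1.48 and 1.74 on the log2 scale of TPM + 0.1. The mean difference was 1.61 ± 0.10 (SE), a 3.06-fold ratio, with a limma adjusted p of 0.00046. With protein-coding transcripts alone the log2 difference was 0.80, and with reads over the longest transcript it was 1.15, both passing the test.

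Slc12a7, at chr13:73733094-73816754, encodes KCC4, an exporter also found in epithelia, and had 11.51 and 12.44 TPM (11.98 ± 0.658). It was 3.25-fold above Slc12a2, and it did not pass the test against Slc12a5, with a log2 difference of 0.09 ± 0.10 (limma adjusted p = 0.45). Slc12a4, at chr8:105943590-105966097, encodes KCC1, the broadly expressed exporter of volume regulation. At 4.11 and 4.35 TPM (4.23 ± 0.17) it did not pass the test against Slc12a2, the log2 difference being 0.22 ± 0.10 (limma adjusted p = 0.117). Slc12a5 was 2.62-fold and Slc12a7 2.79-fold above Slc12a4, and both ratios passed the test. With coding transcripts alone Slc12a5 exceeded Slc12a4 by 0.79 on the log2 scale.

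The kidney cotransporters Slc12a1 (NKCC2) and Slc12a3 (NCC) had 0 reads in both libraries, which allows up to 3 reads in each by counting error. Slc12a8, a distant relative, had 0.52 and 0.46 TPM.

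Slc12a9, at chr5:137314558-137333597 on the minus strand, encodes CIP1, a family member known to bind NKCC1 and with no settled ion of its own. It was the highest of the 5 cotransporter genes among the 9, at 17.82 and 18.24 TPM (18.03 ± 0.297). It exceeded Slc12a7 by 0.59 ± 0.10 and Slc12a5 by 0.67 ± 0.09 on the log2 scale (limma adjusted p = 0.00718 and 0.00428), and Slc12a2 4.88-fold. With coding transcripts alone its log2 difference from Slc12a7 was 0.05 and did not pass (limma adjusted p = 0.654), while that from Slc12a5 was 0.95 and passed.

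Wnk1, at chr6:119923969-120038672 on the minus strand, had the highest TPM of the 9, at 33.69 and 31.81 (32.8 ± 1.33). Wnk2, at chr13:49036303-49148014, had 15.83 and 16.47 TPM (16.2 ± 0.453). Wnk3, at chrX:151198078-151320152, had 16.85 and 13.14 TPM (14.995 ± 2.62), the widest gap between libraries among the 9. By this measure Wnk1 exceeded Wnk2 2.02-fold and Wnk3 2.19-fold (limma adjusted p = 0.00123 and 0.0025). The ratio to Wnk2 turned to -0.71 with coding transcripts alone, and that to Wnk3 was 0.44 on the log2 scale. Wnk2 and Wnk3 changed places between the libraries and did not pass the test, with a log2 difference of 0.12 ± 0.13 (limma adjusted p = 0.436). Wnk2 did exceed Wnk3 by both other measures, by 1.15 with coding transcripts and by 0.39 with reads over the longest transcript (limma adjusted p = 0.000213 and 0.0211). Wnk4, the WNK kinase best known from the kidney, had 6.14 and 5.62 TPM, 5.50-fold below Wnk1. In coding transcripts alone Wnk4 had 5.18 and 5.35 TPM and Wnk1 10.32 and 9.33 TPM. Of the sum over the 4 WNK genes, Wnk1 held 46.5% and 47.4%, Wnk2 21.8% and 24.6%, Wnk3 23.2% and 19.6%, and Wnk4 8.47% and 8.38%. With coding transcripts alone Wnk2 held the largest share, 40.9% and 42.9%, Wnk1 26.7% and 24.5%, Wnk3 19.0% and 18.5%, and Wnk4 13.4% and 14.1%. In Wnk2, the transcript Wnk2-206, annotated as coding but without its coding start, held 58.2% and 59.2% of the gene's TPM.

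Stk39, at chr2:68210445-68472268 on the minus strand, encodes SPAK, the kinase that WNKs phosphorylate and that acts on the cotransporters. Its level was 23.94 and 22.36 TPM (23.2 ± 1.12), below Wnk1 by 0.50 ± 0.09 on the log2 scale (limma adjusted p = 0.01). That order turned by both other measures, the log2 ratio of Wnk1 over Stk39 being -0.40 with coding transcripts and -0.70 with reads over the longest transcript (limma adjusted p = 0.0326 and 0.00246). Stk39 was 2.16-fold above Oxsr1, its close relative, which had 11.19 and 10.15 TPM (limma adjusted p = 0.00104). In coding transcripts alone Stk39 had 11.60 and 14.59 TPM and Oxsr1 9.64 and 9.14 TPM. Cab39, the MO25 scaffold that binds and activates SPAK, was 1.85-fold above Stk39, at 42.66 and 42.90 TPM, and 3.19-fold above it with coding transcripts alone.

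The order by mean TPM was Wnk1, Stk39, Slc12a9, Wnk2, Wnk3, Slc12a7, Slc12a5, Slc12a4 and Slc12a2. Of the 36 pairs among the 9, 29 passed the test. Over all genes tested against each of the 9, 90.9% passed, so passing is the common outcome for a pair of genes. Of the neighbours in the order, Wnk1 and Stk39, Stk39 and Slc12a9, and Slc12a5 and Slc12a4 passed, of which Stk39 and Slc12a9 did not with coding transcripts alone (log2 difference 0.07, limma adjusted p = 0.631). The other neighbours, Slc12a9 and Wnk2, Wnk2 and Wnk3, Wnk3 and Slc12a7, Slc12a7 and Slc12a5, and Slc12a4 and Slc12a2, did not pass. All of these but Slc12a4 and Slc12a2 passed by both other measures. The order of Wnk3 and Slc12a7 was turned in both, and that of Slc12a9 and Wnk2 with coding transcripts. By TPM over all transcripts, the remaining pairs that did not pass were Slc12a9 with Wnk3 and Wnk3 with Slc12a5. A pair counted as passed when limma, with each gene in turn as the reference, gave an adjusted p under 0.05. The reference's own deviation enters every ratio of such a fit, so its p-values can run too small. Printed p-values therefore come from a limma fit of each gene's own level, in which the 29 pairs also passed, and Wnk3 with Slc12a5 did too (log2 difference 0.40 ± 0.13, adjusted p = 0.0494). By that fit 89.2% of all genes passed against the 9. Printed SE values come from that fit too. It adds the variances of both genes without pairing them within a library, and draws each variance toward a spread shared over all genes. An SE therefore need not match the gap between the 2 library ratios of a pair. With 2 libraries, the p-values rest on spread between libraries, which may be partly technical.

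**Figure D1:**
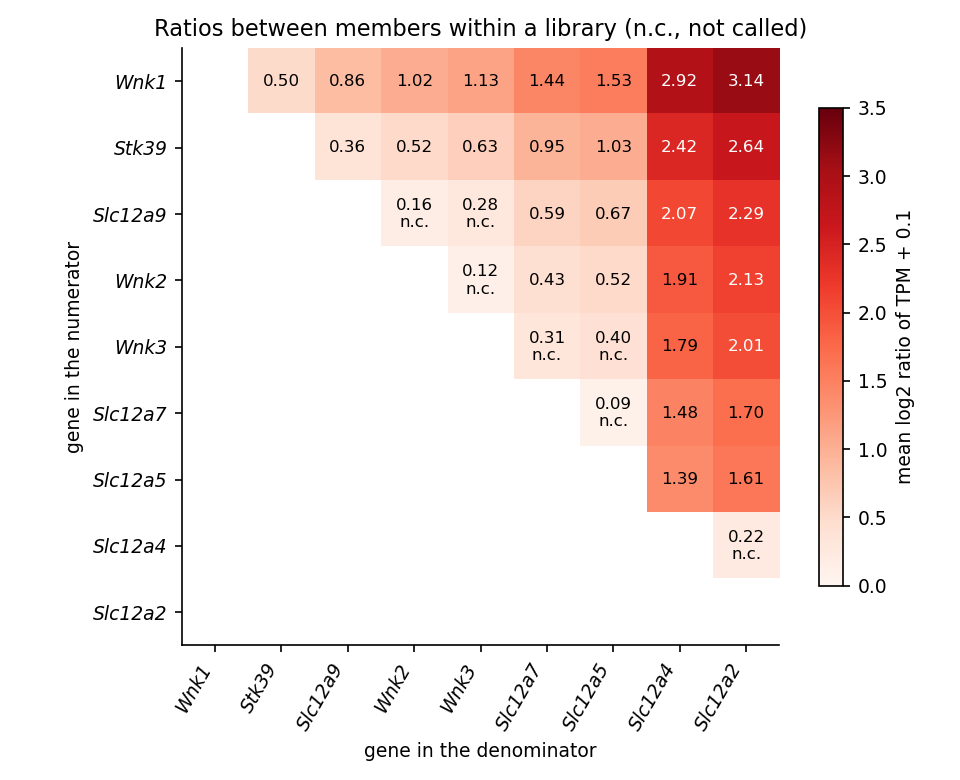
Mean log2 ratio of TPM + 0.1 (row gene over column gene) for the 36 pairs, genes ordered by mean TPM, n.c. marking the 7 pairs that did not pass the test. The ratios not called lie near the diagonal, at 0.40 or below, and the columns of Slc12a4 and Slc12a2 are the darkest.

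The order above rests on TPM summed over all transcripts of a gene, and the estimated transcripts differed strongly in class between the 9. Total RNA holds unspliced and noncoding RNA as well as mRNA. The annotation marks transcripts as protein-coding, retained intron (a spliced RNA that keeps an intron), processed transcript (no open reading frame assigned) or nonsense-mediated decay. Transcripts of the other classes share exons with coding ones, and reads in shared exons are divided by estimation, so a class share is no direct measure of intron retention. Slc12a2 and Slc12a7 have 1 coding transcript each, and in Wnk2 coding transcripts held all of the TPM in replicate 1 and 99.1% in replicate 2. In Wnk1 they held 30.6% and 29.3%, in Wnk3 43.7% and 53.6%, in Stk39 48.5% and 65.3%, and in Slc12a5 51.6% and 61.9%. Slc12a9 had 66.9% and 70.7% and Slc12a4 82.8% and 89.2%. Of the 14878 detected genes, 12912 had any coding TPM, and the rest were left out here. Over these 12912 the median share was 97.9%, and 3.29% of them had a share as low as that of Wnk1 or lower. Counted as reads, which weight long transcripts, coding transcripts held 53.8% and 50.7% in Wnk1, 51.8% and 56.7% in Wnk3, and 73.8% and 80.6% in Slc12a5.

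**Figure D2:**
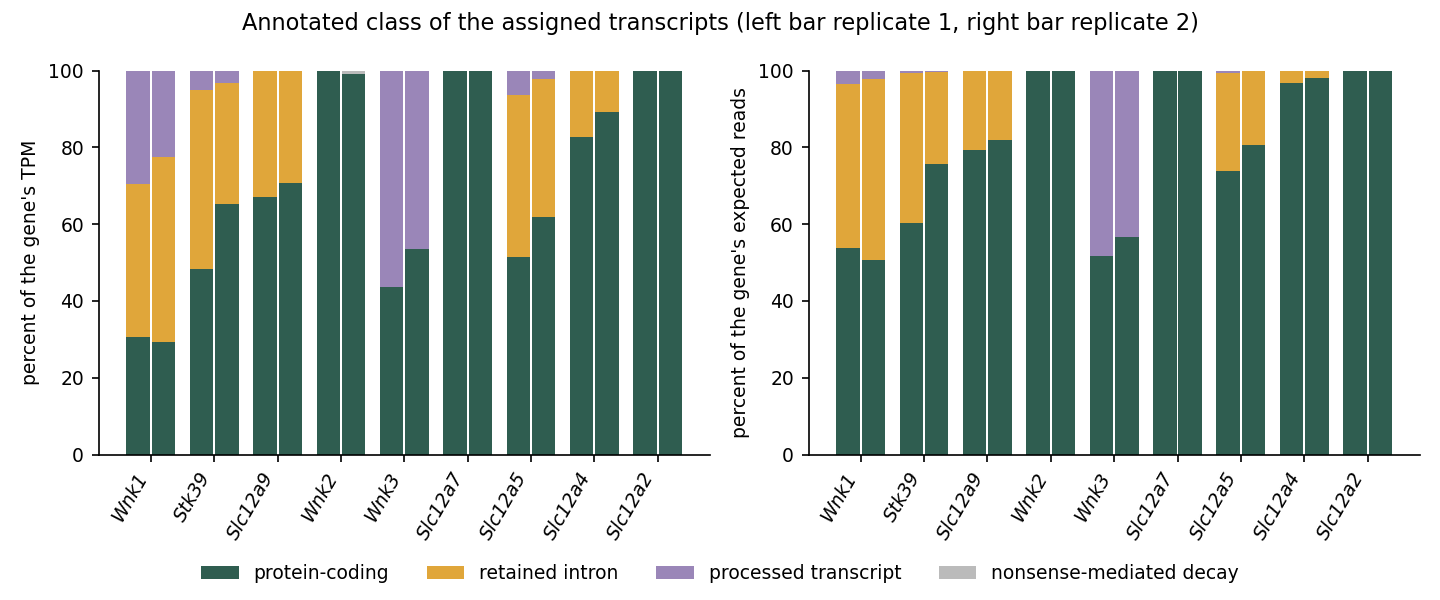
Share of each gene's TPM (left panel, percent) and expected reads (right panel, percent) by annotated transcript class, the left bar of each pair being replicate 1 and the right bar replicate 2. The coding share of Wnk1 is near 30% by TPM and just above 50% by reads. Slc12a2, Slc12a7 and Wnk2 are almost wholly annotated as coding, which in Wnk2 includes a transcript annotated without its coding start.

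With TPM of protein-coding transcripts only, Wnk2 led at 15.83 and 16.33 TPM, followed by Stk39 at 11.60 and 14.59 TPM and Slc12a9 at 11.93 and 12.89 TPM. The lead of Wnk2 rests on Wnk2-206, which had 9.21 and 9.75 TPM and is annotated without its coding start. Of the 3392 bases of Wnk2-206, 1483 lie outside the exons of the full-length transcript Wnk2-205. Slc12a7 kept 11.51 and 12.44 TPM and Wnk1 followed in place 5, at 10.32 and 9.33 TPM. Wnk3 had 7.36 and 7.04 TPM, Slc12a5 5.65 and 7.15 TPM, Slc12a4 3.41 and 3.88 TPM and Slc12a2 3.87 and 3.38 TPM. With reads divided by the length of the longest transcript, Stk39 led, and the log2 ratio of Wnk1 over Wnk2 was 0.10, against 1.02 by TPM over all transcripts. The place of Wnk1 at the top therefore holds for TPM over all transcripts, and not by either other measure. Of the 29 pairs that passed, 5 did not with coding transcripts, namely Stk39 with Wnk1, Wnk2, Slc12a9 and Slc12a7, and Slc12a9 with Slc12a7; Stk39 over Wnk1 passed there only by the fit of each gene's own level. Wnk1 passed with the order turned against Wnk2, Slc12a9 and Slc12a7. With reads over the longest transcript 3 did not, namely Wnk1 with Wnk2 and both of these with Slc12a7. By that measure Wnk1 passed with the order turned against Stk39 and Slc12a9 (log2 ratio -0.35 to Slc12a9). Slc12a4 and Slc12a2 were the lowest by all 3 measures. Slc12a7 exceeded Slc12a5 by 0.90 with coding transcripts and by 0.52 with reads over the longest transcript, and both passed the test. Since the 1 transcript of Slc12a7 is coding, the coding measure could lower only Slc12a5 in this pair.

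**Figure D3:**
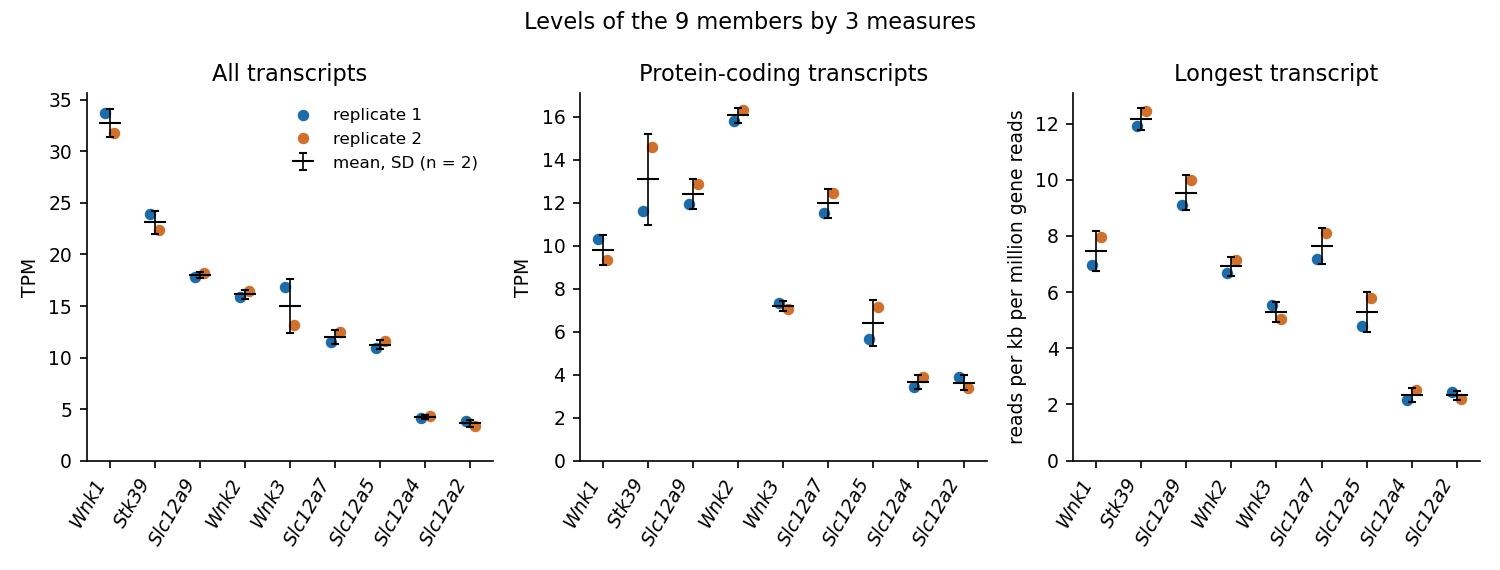
Level of each gene in replicates 1 and 2, with mean and SD (n = 2), as TPM over all transcripts, TPM over protein-coding transcripts, and reads per kilobase of the longest transcript scaled to the reads on genes. Wnk1 is highest in the left panel only, Wnk2 in the middle and Stk39 in the right, while Slc12a4 and Slc12a2 are lowest in each.

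Slc12a5 has alternative first exons. The transcript from the upstream exon 1a encodes KCC2a and that from the downstream exon 1b encodes KCC2b, the form that is most abundant in the mature brain. The forms differ at the 5' end. The coding part of exon 1a, which marks the KCC2a form, is shown with the start codon in capitals, from the plus strand at chr2:164960883-164961003 of GRCm38, read from the M21 annotation.
Exon 1a of Slc12a5: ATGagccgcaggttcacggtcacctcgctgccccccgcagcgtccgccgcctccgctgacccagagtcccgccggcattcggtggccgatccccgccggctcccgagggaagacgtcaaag

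Slc12a5-201, the coding transcript that begins with exon 1b, took 671.31 reads in replicate 1 and 1132.56 in replicate 2. That was 73.8% and 80.6% of the reads and 51.6% and 61.9% of the TPM of the gene. Slc12a5-205, a retained-intron transcript near the 3' end with 504 bases outside the exons of Slc12a5-201, took 222.75 and 256.36 reads and 34.9% and 28.5% of the TPM. Slc12a5-202, a fragment of 462 nt that begins with exon 1a, took 5.02 and 2.61 reads (posterior SD 3.81 and 1.34). It was estimated at 6.30% and 2.34% of the TPM. Longer transcripts with exon 1a in the M21 annotation were not analysed here, so the share of KCC2a cannot be read from these values.

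The stretches upstream of both starts are given for the same gene, from RefSeq promoter windows of GRCm38.p6, which run from 250 bases before to 50 after a start, trimmed where an annotated transcript begins. CG dinucleotides are in capitals. The upstream stretch, chr2:164960596-164960801, holds 6 of them in 206 bases, and the downstream stretch, chr2:164967738-164967982, holds 16 in 245 bases. Before trimming, each of the 2 windows of 300 bases holds 21, with a GC content of 63.7% upstream and 68.3% downstream.
Upstream start of Slc12a5: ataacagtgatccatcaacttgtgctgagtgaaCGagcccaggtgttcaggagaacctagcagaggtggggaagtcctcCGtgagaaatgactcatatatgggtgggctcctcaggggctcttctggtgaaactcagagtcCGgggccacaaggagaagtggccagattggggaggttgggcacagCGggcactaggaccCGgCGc
Downstream start of Slc12a5: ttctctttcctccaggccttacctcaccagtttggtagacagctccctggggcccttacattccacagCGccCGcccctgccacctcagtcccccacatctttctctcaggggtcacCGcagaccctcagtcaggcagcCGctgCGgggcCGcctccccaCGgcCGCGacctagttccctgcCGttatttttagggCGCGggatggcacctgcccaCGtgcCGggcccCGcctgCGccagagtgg

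RefSeq windows of 300 bases were matched for 8 of the 9 genes, 10 windows in all, with Slc12a2 not analysed here. Their GC content ran from 31.7% in Wnk3 to 80.0% in Stk39, against a median of 52.7% over 32851 windows. CG dinucleotides numbered 2 in Wnk3 and 49 in Stk39, against a median of 7. Letters of factors known to act on Slc12a5 were searched on both strands. The Egr motif GCGNGGGCG was found in 0 of the 10 windows and in 5.55% of all windows. The left part of the REST element, TTCAGCACC, was found in 0 of 10 and in 0.371% of all, and its right part, GGACAG, in 0 of 10 and 22.2%. TATAAA was found in 1 of 10, that of Wnk3, and in 13.6% of all windows. No match says only that these letters are not in these windows.

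Wnk1 has 23 transcripts in the tables, of which 15 took reads in either library. Wnk1-202, a coding transcript of 10575 nt, took 741.80 and 993.16 reads but 10.5% and 11.2% of the TPM. Wnk1-206, a retained-intron transcript of 5745 nt from the main start, took 762.92 and 1294.49 reads and 20.0% and 27.0% of the TPM. Of its bases, 2421 lie outside the exons of the full-length transcript. Wnk1-208, a retained-intron transcript at the 3' end, held 14.3% and 16.2%, with only 29 of its 2934 bases outside those exons. Wnk1-217, a processed transcript of 516 nt, held 25.9% and 22.1% of the TPM from 72.97 and 78.46 reads (posterior SD 12.4 and 13.8). All of its bases lie in exons of the full-length transcript Wnk1-203. Its first exon, at chr6:119992340-119992529 on the minus strand, is shown as the sequence over which reads were divided between a short fragment and the long transcripts.
First exon of Wnk1-217: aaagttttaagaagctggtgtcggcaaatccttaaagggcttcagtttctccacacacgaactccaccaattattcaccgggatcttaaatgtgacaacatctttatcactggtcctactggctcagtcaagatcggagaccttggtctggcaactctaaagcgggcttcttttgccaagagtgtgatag

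In reads, Wnk1-217 held 2.95% and 2.16% of the gene, and the 14 coding transcripts together held 53.8% and 50.7%. By TPM these coding transcripts held 30.6% and 29.3%. A kidney form of Wnk1 that lacks most of the kinase domain is known to start from an exon inside the gene. Wnk1-201, chosen after its values were seen, begins downstream of 4 exons of the full-length transcript with a first exon of 331 bases that lies in none of its exons. It took 13.21 and 1.93 reads, 1.21 and 0.13 TPM. Whether it is that form was not tested.

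Wnk2 was divided between Wnk2-206, a coding transcript of 3392 nt that begins inside the gene and is annotated without its coding start (58.2% and 59.2% of the TPM), and Wnk2-211, of 6628 nt (25.0% and 26.2%). The posterior SD of Wnk2-211 was 164 and 166 on 516.81 and 754.48 reads, so near-identical long transcripts could not be separated well. Wnk3 was divided between the coding transcripts Wnk3-206 (27.2% and 34.5%) and Wnk3-205 (16.2% and 19.1%) and the processed transcripts Wnk3-203 (31.6% and 32.7%) and Wnk3-202 (24.7% and 13.7%). Wnk3-202, of 609 nt, had 4.17 TPM in replicate 1 and 1.80 TPM in replicate 2, on 42.61 and 24.58 reads. Of the 6410 bases of Wnk3-203, 1843 lie outside the exons of the full-length transcript Wnk3-201. Coding TPM of Wnk3 was 7.36 and 7.04, closer between the libraries than its total.

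Stk39-201, the coding transcript, held 48.5% and 65.3% of the TPM of Stk39. The retained-intron transcripts Stk39-203 (31.7% and 17.4%) and Stk39-202 (14.7% and 14.1%) held most of the rest. Outside the exons of Stk39-201 lie 312 of the 2578 bases of Stk39-203 and 444 of the 2038 bases of Stk39-202. Slc12a9-201 held 65.4% and 69.4% and the retained-intron transcript Slc12a9-203 31.7% and 28.8%, with 1175 of its 1815 bases outside the exons of Slc12a9-201. In Slc12a4, Slc12a4-202 held 56.6% and 83.0%, Slc12a4-201 26.2% and 6.21%, and the retained-intron transcript Slc12a4-204 17.2% and 10.8% from 8.73 and 7.79 reads. Only 3 of the 3755 bases of Slc12a4-202 lie outside the exons of Slc12a4-201, and the posterior SD of Slc12a4-201 was 35.3 and 30.6 on 80.57 and 26.46 reads.

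Genes of the same pathway were read against Slc12a5 and Stk39, on the log2 scale of TPM + 0.1. Of 12 further genes of the WNK and SPAK pathway, 9 were detected, and of these 6 were higher than Slc12a5, 2 lower and 1 not called. Against Stk39, 4 were higher and 5 lower, and by the fit of each gene's own level 2 and 5. Their median level, over all 12, was 13.1 TPM. Over all genes, 54.5% were higher and 36.7% lower than Slc12a5, and 37.1% higher and 54.4% lower than Stk39. By the fit of each gene's own level, 35.9% of all genes were higher and 53.3% lower than Stk39. The highest were Cab39, then Sgk1, a kinase upstream of ion transport, at 29.46 and 28.72 TPM, Cul3 at 27.57 and 28.60 TPM, and Nedd4l at 27.18 and 26.79 TPM. Cul3 is the scaffold of the ubiquitin ligase that removes WNK kinases, and Nedd4l a ubiquitin ligase of ion transporters. Klhl2, an adaptor of the Cul3 ligase for WNK kinases, had 14.41 and 16.77 TPM, and its relative Klhl3 2.30 and 2.35 TPM.

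Of 9 genes of chloride channels, bicarbonate transport and the sodium pump, 8 were higher than Slc12a5 (54.5% of all genes) and 1 lower (36.7%). Their median level was 20.8 TPM. Against Stk39, 4 were higher, 4 lower and 1 not called, and by the fit of each gene's own level 4 and 3 were called. Of the sodium pump subunits, Atp1b3 had 137.88 and 139.21 TPM and Atp1b1 74.48 and 70.42 TPM. The chloride-proton exchanger Clcn3 had 45.57 and 40.24 TPM, and the chloride-bicarbonate exchanger Slc4a3 28.15 and 32.77 TPM. Slc4a10, a sodium-driven bicarbonate transporter, was the lowest at 7.33 and 5.85 TPM.

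Of 10 partners and regulators of KCC2, with a median level of 16.2 TPM, 9 were detected. Of these 9, 5 were higher than Slc12a5 (54.5% of all genes), 3 lower (36.7%) and 1 not called. Against Stk39, 4 were higher, 4 lower and 1 not called, and by the fit of each gene's own level 3 and 4 were called. Ckb, the brain creatine kinase that binds KCC2, had 1561.02 and 1520.02 TPM. Neto2, an auxiliary kainate receptor subunit that binds KCC2, had 37.14 and 29.29 TPM, the synaptic scaffold gephyrin (Gphn) 30.12 and 29.07 TPM, and the BDNF receptor Ntrk2 27.74 and 27.63 TPM. Rest, a repressor of neuronal genes, had 6.54 and 6.68 TPM. Egr4, a factor known to raise Slc12a5 transcription, had 0 reads in both libraries, which allows up to 3 reads in each.

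**Figure D4:**
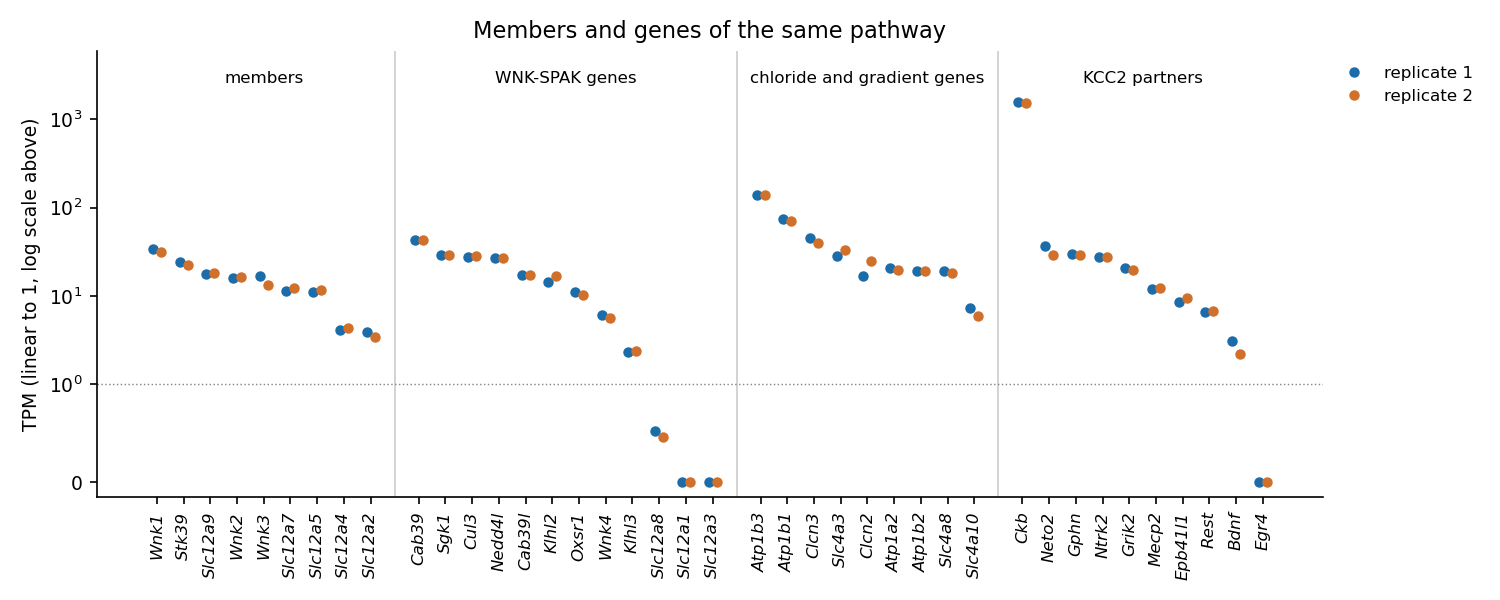
TPM of the 9 genes and of 3 pathway lists in replicates 1 and 2, on an axis that is linear to 1 TPM (dotted line) and logarithmic above. Most pathway genes lie between 5 and 50 TPM, Ckb is at 1561.02 and 1520.02 TPM, and Slc12a1, Slc12a3 and Egr4 are at 0.

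Between the libraries, 0 of the 9 passed a rule of 2-fold size among genes averaging 50 reads or more, which 0.724% of all genes passed. At 1.5-fold 0 of the 9 passed too, against 3.31% of all genes. In TMM-scaled reads, replicate 2 over replicate 1 was 1.20 for Slc12a5 (95% interval 1.10 to 1.30), 1.13 for Wnk1 (1.08 to 1.19) and 1.12 for Slc12a7 (1.03 to 1.20). Wnk3 was at 0.90 (0.839 to 0.965) and Slc12a2 at 0.90 (0.798 to 1.02). The intervals of Slc12a4, Slc12a9, Wnk2 and Stk39 included 1. They are exact binomial intervals and cover counting error only. No test was possible with a single library per side. The median size of the log2 ratio was 0.15 over the 9 and 0.10 over all 14366 genes with enough reads. Wnk1 was higher in replicate 2 by reads and lower by TPM. The length used for its TPM, averaged over its estimated transcripts, was 3769 nt in replicate 1 and 4370 nt in replicate 2. TPM totals include spike-ins, and genes summed to 946373 TPM in replicate 1 and 906069 TPM in replicate 2. By TPM + 0.1 the median log2 ratio over all genes was -0.04, against -0.08 for Wnk1 and -0.10 for Stk39. How much of these ratios comes from length or from spike-ins was not tested. Wnk3 overlaps the pseudogene Rpl21-ps15 on the opposite strand, which took 192.53 and 67.63 reads, and since no source here states a strand setting, its reads are uncertain. Wnk1 and Slc12a4 also overlap antisense or pseudogene annotation, with 33.81 and 57.11 reads on Gm16199 and 1.13 and 2.43 on Gm16156.

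**Figure D5:**
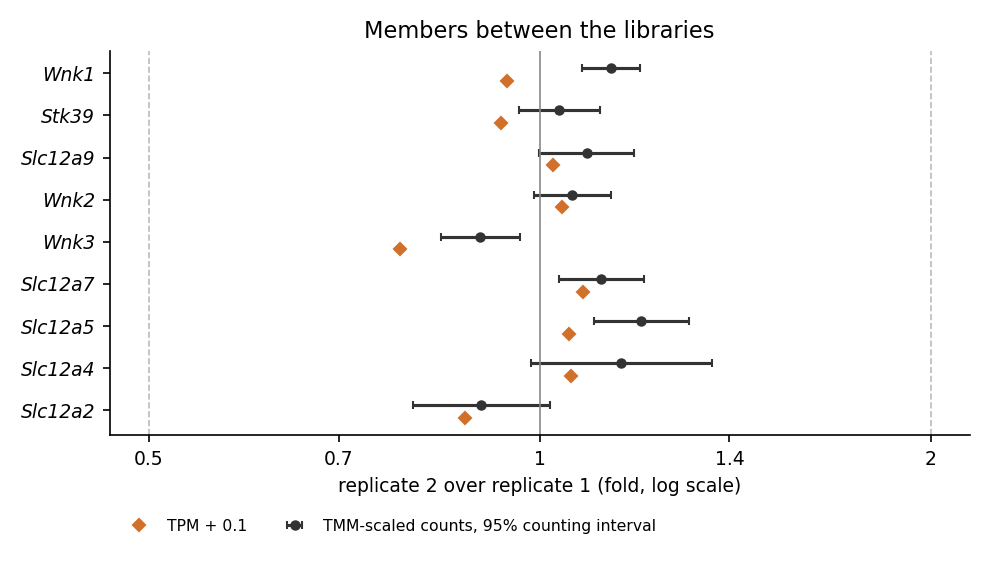
Fold of replicate 2 over replicate 1 (log axis) for TMM-scaled reads with exact binomial 95% intervals and for TPM + 0.1, dashed lines marking 2-fold either way. All 9 genes lie well inside the dashed lines, and Wnk1 and Stk39 lie on opposite sides of 1 by the 2 measures. TPM totals include spike-ins, whose part was larger in replicate 2.

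Markers of the dissected tissue and its cells were read in the same libraries. All 8 midbrain genes were detected (Otx2 highest at 104.49 and 117.17 TPM, En2 lowest at 1.60 and 1.72 TPM), and 0 of 5 hindbrain Hox genes were (Hoxb2 highest at 0.24 and 0.14 TPM). Neuron markers summed to 3586 and 3263 TPM, progenitor markers to 2114 and 2012 TPM. All 6 choroid plexus genes were higher in replicate 2 by TMM-scaled reads, as were 7315 of all 14366 genes with enough reads. The intervals of Aqp1, Folr1 and Kl included 1, and Kl was not detected. The 6 summed to 75.5 against 134 TPM, of which Ttr alone was 61.75 and 116.55 TPM. Choroid plexus is known for high Slc12a2, which here had 3.87 and 3.38 TPM. Cortical genes summed to 22.43 and 38.02 TPM, and 4 of 5 were over 2-fold higher in replicate 2, as were 0.508% of all genes with enough reads. Meningeal markers summed to 275 and 337 TPM, endothelial to 154 and 169 TPM, and microglial to 60.7 and 67.0 TPM. Erythroid markers summed to 1894 and 2044 TPM, of which Hba-a1 alone was 1868.09 and 2011.96 TPM, with Epb42 not detected. Oligodendrocyte markers summed to 33.2 and 28.9 TPM, with Sox10 not detected at 0.48 and 0.53 TPM. Slc12a4, Slc12a7 and Wnk1 are also made by such cells, and the part of these cells in the values above was not tested. In bulk tissue, fewer cells of a type and less RNA per cell cannot be told apart.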

How the data were processed

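Total RNA of 2 libraries of embryonic midbrain was analysed. Per the deposited text, the authors quantified genes and transcripts against mm10 and GENCODE M4. The deposited expected counts are estimated reads that need not be whole, and were rounded for library ratios. The deposited TPM values are scaled to length and to 1 total per library, spike-ins included, per the column sums. FPKM values, also deposited, divide by length and by aligned reads, per the file headers. In the transcript tables a deposited percent gives each transcript's share of its gene. Not given in the sources used here are the aligner, its version, the strand setting and any filter. Reads matching several genes or transcripts are divided by estimation, so shares of overlapping transcripts are uncertain. The column names are those of RSEM.

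Of 43346 gene identifiers, 42462 matched GENCODE M21 of GRCm38, which gave symbols, positions and transcript classes, and all 63 transcripts of the 9 genes matched. Spike-ins took 2.22% and 4.06% of the reads. Gene pairs were compared on log2(TPM + 0.1) over 14878 genes of at least 1 TPM in both libraries, with intercept-only limma 3.58.1 fits and Benjamini-Hochberg adjustment over all genes of a fit. This scale makes folds of weakly expressed genes too small. The fit of each gene's own level, which gave the printed p-values, was added after seeing the data. Library ratios used counts plus 0.5 and TMM factors of edgeR 4.0.16 in R 4.3.3, with DESeq2 1.42.0 size factors as an alternative. In 20 simulated draws of 14878 genes, the pair test against Slc12a5 passed 6.3% of 50 genes with no difference and 93.3% at a log2 ratio of 0.5. The fit of each gene's own level passed 2.2% and 95.5%. In 1 draw, the 2-fold rule took 0.0136% of unchanged genes and 68% of genes at 2-fold. Tables and plots used Python 3.11.15 with matplotlib 3.10.9. The 9 genes and the lists were chosen with earlier results of these data known. Named were all 9 genes, paralogues, transcripts of at least 10% of a gene's TPM, and up to 4 highest genes and the lowest of each list, a few others being named for their roles. Some items of the lists and 1 sequence are not reported here.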

Additional observations from a re-analysis of the deposited data

How the results depend on the processing

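The 29 pairs that passed the test did so with a pseudocount of 1 or 0.01 TPM, with FPKM, with no filter on low values, and with a prior spread that follows the level. With a minimum of 10 TPM for the other genes of the fit, 31 passed by the test against a reference gene. Slc12a4 over Slc12a2 was among them, at an unchanged log2 ratio of 0.22. The genes of the pairs were kept whatever their level. Slc12a4 (4.11 and 4.35 TPM) and Slc12a2 (3.87 and 3.38 TPM) themselves lay below that minimum. With TPM of protein-coding transcripts 29 passed, 24 of them among the first 29 and 21 of those in the same direction. With reads per kilobase of the longest transcript 31 passed, 26 of them among the first 29 and 24 in the same direction. Both measures were chosen after seeing the data. With coding transcripts 7 log2 ratios turned. They were -0.40 for Wnk1 over Stk39, -0.37 for Slc12a9 over Wnk2, -0.73 for Wnk3 over Slc12a7 and -0.71 for Wnk1 over Wnk2. The others were -0.28 for Wnk1 over Slc12a7, -0.33 for Wnk1 over Slc12a9 and -0.30 for Stk39 over Wnk2. With reads over the longest transcript 6 turned. Of these, Wnk1 over Stk39 at -0.70, Wnk3 over Slc12a7 at -0.53 and Wnk1 over Slc12a9 at -0.35 passed. Wnk1 over Slc12a7 at -0.04, Wnk2 over Slc12a7 at -0.14 and Wnk3 over Slc12a5 at -0.002 did not. By construction both measures leave out the transcripts or lengths that set the TPM of these genes. In each library alone, which gives no test, the named ratios kept their direction, except Wnk2 over Wnk3, which ran from -0.09 to 0.32. The count of 0 genes past 2-fold held with DESeq2 size factors, library totals, TPM ratios, a 1.5-fold rule (3.31% of all genes) and no count minimum. No paired analysis was possible because the design has 1 group. Stk39 over Slc12a9 was 0.07 with coding transcripts and no longer passed. Depth limits several transcript shares, since Wnk1-217, Wnk3-202, Slc12a4-201, Slc12a4-204 and Slc12a5-202 rest on under 100 reads each.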
